A study of Mus musculus with 6 samples.

Results

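The 9 genes described here, Dct, Mitf, Pax3, Sox10, Foxd3, Ednra, Ednrb, Tfap2a and Tfap2b, are genes of the neural crest and of melanoblasts, the precursors of pigment cells. They were taken by symbol, as every probe set whose annotated gene symbol is exactly 1 of these names. Of the 18193 genes with a symbol of their own on the array, 8 were members, read by 18 probe sets. Ednra was not analysed here. The members were chosen with the difference between the same 2 groups known, above all that of Dct, so their values are given as a description without p-values.

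Epithelial cells of the gonadal primordium, the part of the urogenital ridge that forms the gonad, were laser-microdissected at E10.5. The groups were Emx2 KO fetuses, labelled -/-, and wild-type fetuses, labelled +/+. Emx2 is a homeobox gene needed for the urogenital tract to form. Each group had 3 pools, each pool held tissue of 3 fetuses, and 1 array of 45101 probe sets was hybridised per pool after amplification of 15 ng of RNA. The knockout allele, strain and sex were not given in the sources used here. A pooled value hides the spread between its fetuses, and the p-values below measure only the spread between pools.

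Several facts bear on every difference below. The single Emx2 probe set did not check the labels, since it read 1634 ± 138 in KO and 1716 ± 409 in wild-type pools (SD, n = 3 each; limma, adjusted p = 0.916). Where it lies relative to the deleted part is not known, and KO means the pools labelled so. An antisense gene of the locus, Emx2os, picked after its values were seen, fell to 44.9, 28.6 and 42.9 in KO pools, against 167, 230 and 174 in wild-type pools (limma, log2 difference -2.30, SE 0.24, adjusted p = 0.00015). Sex and genotype cannot be told apart, because Xist, transcribed from the inactive X chromosome, read 9321 to 9888 in KO pools and 13.3 to 69.9 in wild-type pools. The Y-linked Eif2s3y ran the other way, at 99.8 to 226 in KO and 709 to 813 in wild-type pools. Kdm5d (log2 difference -2.20) and Uty (-2.13), also Y-linked, were lower in KO pools too. Markers of the labelled tissue, 11 genes of gonadal and coelomic epithelium, summed to 20427 to 22482 in KO and 22246 to 24577 in wild-type pools. Of them 2 rose (Upk1b, Krt19), 2 fell (Nr5a1, Krt8) and 6 did not pass.

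KO pool 2 stood apart from the rest, as counted after the values were seen. It lay at least 2-fold above all 5 other arrays in 105 of 18193 genes (0.577%), where the other arrays did so in 21 to 42. Among the genes of the lists used here these were Pax3, Pax7, Zic1, Sox1, Sox3, Elavl3, Tubb3 and Tyrp1. Zic1, a factor of the dorsal neural tube, read 413 in KO pool 2, against 15.4 and 8.99 in the other KO pools and at most 27.8 in wild-type pools. Pax7 at its brightest probe set, 1444596_at, read 106 there and at most 2.78 in any other pool. The summed level of 8 neural tube markers was 489, 1098 and 567 in KO pools 1, 2 and 3, against 487, 461 and 553 in the wild-type pools. Results for the members are therefore given with and without KO pool 2.

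The neural crest arises at the border of the neural plate under Pax3, Zic and AP-2 factors. Its cells then express Foxd3 and Sox10, leave the neural tube and form neurons, glia, mesenchyme and pigment cells. In mouse melanoblasts, Pax3 and Sox10 activate Mitf, the master regulator of the pigment lineage. Mitf and Sox10 in turn activate Dct, which encodes dopachrome tautomerase, an enzyme of eumelanin synthesis and an early melanoblast marker. Ednrb is the receptor through which endothelin 3 keeps crest cells of the pigment and enteric lineages proliferating, and Ednra is the receptor for endothelin 1.

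Promoter windows of 300 bases, 250 before and 50 from the annotated start, were taken from RefSeq (GRCm38.p6) for 7 of the 9 members, 10 windows in all. The Pax3 and Sox10 promoters are named only. The windows of Dct and Ednrb are shown because these genes differed between the groups. Capitals mark matches on either strand to the E-box core of the Mitf M-box (CATGTG), a SOX core (ACAAAG) and an AP-2 site (GCCNNNGGC), none of which overlap here. The Dct window lies at chr14:118052197-118052496 on the minus strand, and the Ednrb window at chr14:103843652-103843951, also on the minus strand. Both are written 5′ to 3′ in the direction of transcription.
Dct: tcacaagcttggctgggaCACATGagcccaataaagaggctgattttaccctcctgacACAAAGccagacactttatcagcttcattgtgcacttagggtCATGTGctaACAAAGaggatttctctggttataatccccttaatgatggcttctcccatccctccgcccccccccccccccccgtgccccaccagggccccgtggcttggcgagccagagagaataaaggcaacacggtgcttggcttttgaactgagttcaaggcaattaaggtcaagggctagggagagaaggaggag
Ednrb: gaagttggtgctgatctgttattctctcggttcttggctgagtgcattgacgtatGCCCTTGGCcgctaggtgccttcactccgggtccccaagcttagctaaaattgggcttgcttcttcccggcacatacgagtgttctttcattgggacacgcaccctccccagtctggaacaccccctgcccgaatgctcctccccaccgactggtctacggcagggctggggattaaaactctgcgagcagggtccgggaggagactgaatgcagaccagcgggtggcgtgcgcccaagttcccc

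In the Dct window CATGTG matched 2 times, beginning 232 bases (opposite strand) and 150 bases before the start. ACAAAG also matched 2 times, at 192 and 141 bases before the start. The Ednrb window had 1 match to GCCNNNGGC, 195 bases before the start, and none to the other motifs. Over the 32851 mouse promoter windows of the same length, CATGTG occurred in 14.2%, ACAAAG in 18.7% and GCCNNNGGC in 16.6%. The palindromic E-box CACGTG, found in 7.15% of windows, matched in the Foxd3 window alone among those of the members, 217 bases before the start. A match is a description of the letters, and binding was not measured.

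Values below are the authors' intensities scaled to a common trimmed mean, and differences are log2 KO minus wild-type from limma's fit. For the fit, values under a floor of 7.99 were set to it, so they have no order among themselves. The dimmest 40% of probe sets by mean of these floored log2 values were not tested. That cut lay at the log2 value of an intensity of 26.4 (the dim limit). Of the 18 member probe sets, 8 were tested, covering 6 genes, and 10 lay under the filter, among them every probe set of Foxd3 and Tfap2b. The threshold, an adjusted p under 0.05, was passed by 3 of the 8, where 4.68% of all 27022 tested probe sets passed. Pax3 and Ednrb were higher in the KO pools at 1 probe set each, against 2.75% of all tested, and Dct was lower, against 1.93%. Dct, Pax3 and Ednrb were also the tested members whose groups did not overlap, a pattern met by 22.0% of all tested probe sets. The contrast that gave these counts was the one the members were chosen on, so nothing is read from them. The gene lists used here were also chosen with earlier results of these data known. Their counts, to be set beside the same 4.68%, and their p-values are therefore descriptions of chosen genes. The median difference was 0.03 over the 8 tested member probe sets and 0.01 over all those tested.

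**Figure D1:**
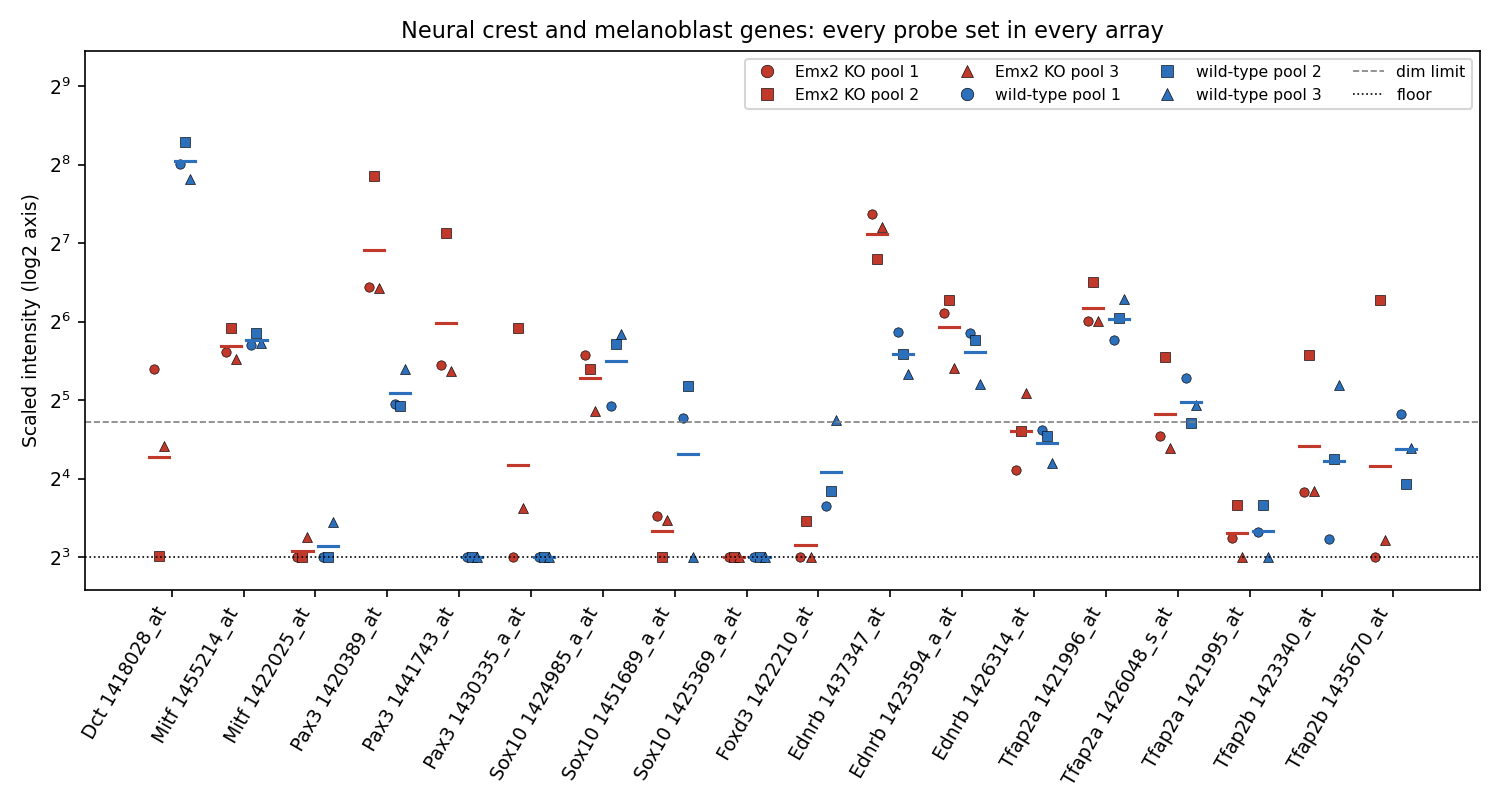
Scaled intensity (log2 axis) of all 18 member probe sets in every pool, with Emx2 KO in red to the left of wild-type in blue, and lines at the group means of log2 values. Dct lies lower in all KO pools, Pax3 and 1 Ednrb probe set lie higher, and KO pool 2 (red square) is the highest of the 6 arrays at all 3 Pax3 and both Tfap2b probe sets.

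Dct was the tested member with the greatest difference. Its only probe set, 1418028_at, read 42.1, 8.11 and 21.3 in KO pools 1, 2 and 3, against 258, 313 and 226 in wild-type pools 1, 2 and 3. Every KO pool lay well below every wild-type pool, and KO pools 2 and 3 lay under the dim limit. The means were 23.8 ± 17.2 in KO and 266 ± 44.4 in wild-type pools (SD, n = 3 each), a log2 difference of -3.76 (SE 0.45). Without KO pool 2, the lowest, the difference was -3.14, and without KO pool 1, the highest, it was -4.32. It was -2.90 with a pseudocount of 16 in place of the floor, so the direction is firmer than the size. In a bulk sample, fewer cells of a type and less RNA per cell cannot be told apart.

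The other genes of the pigment programme gave no such difference. Of 17 melanin and melanosome genes, 16 were measured, 11 of them lay under the filter, and 0 of the 5 tested passed in limma's test in either direction. Closest by p were Rab38, a Rab GTPase of melanosome biogenesis, and Kit, the receptor of melanoblast survival. Rab38 read 385 ± 35.3 in KO and 491 ± 16.9 in wild-type pools (SD, n = 3 each; log2 difference -0.35, SE 0.13, adjusted p = 0.172, unadjusted p = 0.0186). It was the only 1 of the 5 with an unadjusted p under 0.05. Kit read 97.6 ± 5.86 in KO and 123 ± 11.4 in wild-type pools (SD, n = 3 each; -0.33, SE 0.19, adjusted p = 0.419). Among the untested genes, Rab27a, which tethers melanosomes to their motor, read 12.2, 18.4 and 13.6 in KO and 30.1, 28.5 and 30.1 in wild-type pools, a gene singled out after its values were seen.

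Of the 6 defining melanoblast markers, Tyr, Tyrp1 and Mlana lay under the dim limit in both groups. Tyr, the rate-limiting enzyme of melanin synthesis, read 8.5 to 15.5 in KO and 12.7 to 16.8 in wild-type pools. Tyrp1, the closest relative of Dct, was under the floor in all pools except KO pool 2, where it read 18.1. Mlana, a melanosomal protein, was likewise under the floor in every pool except KO pool 2. Pmel, the fibril protein of melanosomes, read 57.0, 29.3 and 50.2 in KO and 48.3, 40.3 and 16.3 in wild-type pools. Slc45a2, a melanosome transporter, read 23.1 to 35.5 in KO and 17.1 to 29.6 in wild-type pools. The groups overlapped for Tyr, Pmel and Slc45a2, and did not for Kit, whose highest KO value was 103 and lowest wild-type value 111. The summed level of the 6 was 193 to 206 in KO and 193 to 216 in wild-type pools. Apart from Dct and Kit, then, each defining melanoblast marker was dim or overlapped between the groups, and Kit is also a marker of primordial germ cells.

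**Figure D2:**
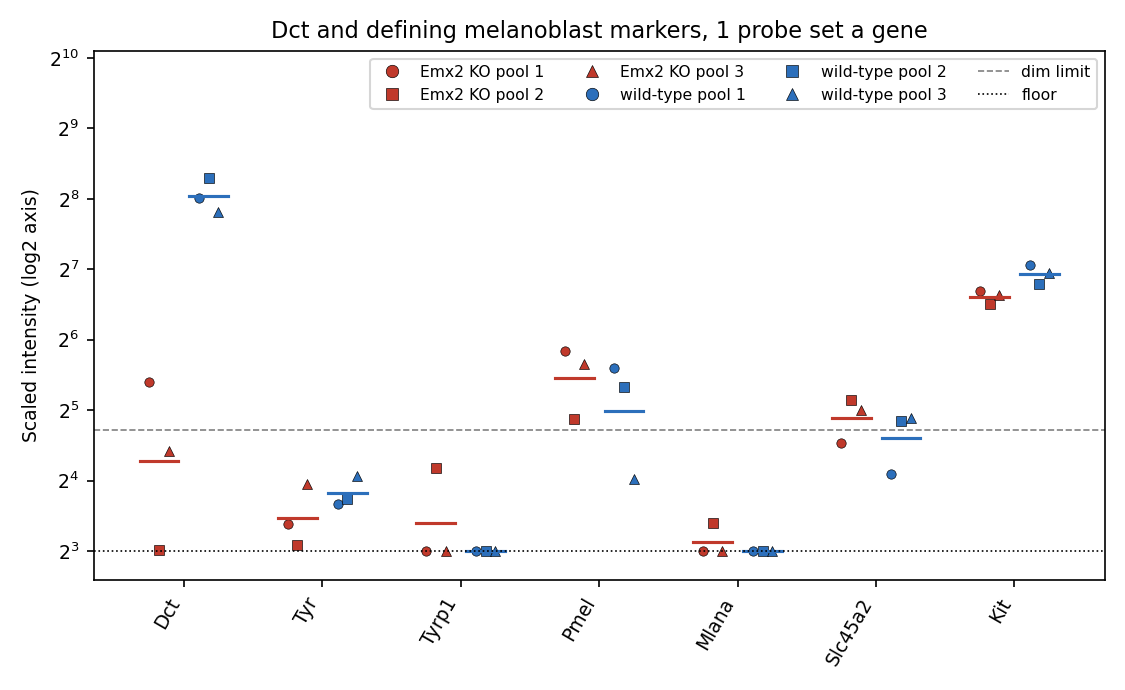
Scaled intensity (log2 axis) of Dct and the 6 defining melanoblast markers, 1 probe set a gene, in every pool, Emx2 KO in red and wild-type in blue, with lines at the group means of log2 values. Only Dct separates widely, while Tyr, Tyrp1 and Mlana lie under the dim limit of 26.4 in all 6 arrays.

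Mitf, the basic helix-loop-helix factor that binds the E-box core marked in the Dct window, differed little. Probe set 1455214_at read 49.1, 60.4 and 45.9 in KO pools, against 51.9, 57.8 and 53.2 in wild-type pools. The KO values spanned the wild-type ones, and the log2 difference was -0.08 (SE 0.25). The second Mitf probe set, 1422025_at, lay under the floor in 2 pools of each group and reached 9.52 in KO and 10.9 in wild-type pools. At both probe sets the difference was smaller than the spread between pools. Of the Mitf paralogs, Tfe3 read 222 ± 29.8 in KO and 200 ± 10.8 in wild-type pools (SD, n = 3 each; limma, adjusted p = 0.719).

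Pax3, a paired-box factor of the dorsal neural tube, neural crest and somites, was higher in the KO pools. Probe set 1420389_at read 87.0, 232 and 86.3 in KO pools 1, 2 and 3, against 30.8, 30.3 and 42.2 in wild-type pools. All KO pools lay above all wild-type pools, with KO pool 2 far above the other KO pools. The log2 difference was 1.82 (SE 0.36), a 3.53-fold higher level, and 1.35 without KO pool 2. Probe set 1441743_at, untested, read 43.7, 140 and 41.5 in KO pools, while all 3 wild-type pools lay under the floor. Measured from the floor, the KO level was at least 2.99 higher on the log2 scale, and at least 2.43 without KO pool 2. That bound was 1.17 with the floor raised to the 40th percentile. Probe set 1430335_a_at read 3.47, 60.3 and 12.3 in KO pools, again with all wild-type pools under the floor, and its difference of 1.18 (SE 0.81) was 0.32 without KO pool 2. KO pool 2 was thus the highest pool at all 3 probe sets.

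Pax3 moved with other genes in KO pool 2, and the difference was also read in the other KO pools alone. In KO pools 1 and 3, Zic1, Pax7 and the summed level of the neural tube markers were near wild-type levels. The sum hides single markers that were not. In both pools Nes, the brightest of them, lay above every wild-type pool and Sox2 below every wild-type pool. Sox3, the other tested marker, lay within the wild-type range. Pax3 at 1420389_at averaged 86.6 in these KO pools, against 34.4 ± 6.73 in wild-type pools. Pax7, the nearest paralog of Pax3, was under the floor at 1444596_at in both of those KO pools and in all wild-type pools. A second Pax7 probe set, 1452510_at, read 11.2 in KO pool 2 and 8.62 in wild-type pool 3 and was under the floor elsewhere. Pax3 also marks the dermomyotome, and the 6 measured somite and myotome markers summed to 203 to 210 in KO and 169 to 212 in wild-type pools. None of the somite markers passed: 2 were tested, Lbx1 (0.31) and Tcf15 (-0.04), and 4 lay under the filter. Of the untested ones, Myog read 15.2, 21.3 and 19.3 in KO and 7.07, 9.69 and 11.3 in wild-type pools, all under the dim limit. It was singled out after its values were seen, and Meox1, Myf5 and Pax1 overlapped between the groups. Which cells carried the Pax3 signal was not tested.

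Sox10 and Foxd3, which maintain migrating neural crest, gave weak signals. Sox10 at 1424985_a_at, its one tested probe set, read 47.7, 42.3 and 29.1 in KO pools, against 30.4, 52.7 and 57.5 in wild-type pools. The groups overlapped, and the log2 difference was -0.22 (SE 0.33). A second Sox10 probe set, 1451689_a_at, read 11.5, 7.23 and 11.1 in KO and 27.3, 36.4 and 3.98 in wild-type pools, where 2 wild-type pools were high and wild-type pool 3 was the lowest of the 6. Its difference was -0.99 (SE 0.63), and the third, 1425369_a_at, was under the floor in all pools. Foxd3 at 1422210_at read 3.65, 11.0 and 5.56 in KO pools, against 12.6, 14.4 and 26.8 in wild-type pools. The groups did not overlap, but nearly all values lay under the dim limit. Its difference of -0.93 (SE 0.34) became 0 with the floor at the 40th percentile, -1.48 with no floor and -1.10 without KO pool 2.

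Among 20 further genes of neural crest specification and migration, 12 were tested, 2 rose, 0 fell and 8 lay under the filter. Twist1, a helix-loop-helix factor of cranial crest and of mesoderm, rose to 974, 940 and 1075 in KO pools, against 323, 297 and 268 in wild-type pools (limma, log2 difference 1.75, SE 0.13, adjusted p = 1.25e-05). Itga4, an integrin chain used by migrating crest and blood cells, rose to 133 ± 11.7 in KO, against 57.8 ± 11.3 in wild-type pools (SD, n = 3 each; limma, 1.22, SE 0.22, adjusted p = 0.00594). Of the other Itga4 probe sets, 1421194_at did not pass (0.16, adjusted p = 0.879), nor did 1456498_at (0.96, adjusted p = 0.101). The list's median difference was 0.33 over its tested genes. Its summed level was 13824 to 15087 in KO and 10822 to 11795 in wild-type pools. By far the brightest in that sum were Snai2, at 5379 in KO and 4413 in wild-type pools, and Id2, at 5097 and 3939. Of the tested genes that did not pass, Msx1 (-0.64), Ngfr (-0.56), Msx2 (-0.49), Erbb3 (-0.22) and Cdh6 (-0.20) were lower in KO. Sox9 (0.74), Foxd1 (0.69), Id2 (0.37), Ets1 (0.36) and Snai2 (0.29) were higher. Those higher, and Msx1 and Msx2 among those lower, had an unadjusted p under 0.05 in limma's test. Of the untested genes, Sox5 (-1.30, groups not overlapping), Cxcr4 (-0.25) and Sox8 (-0.23) were lower in KO. Zic1 (1.67), Pax7 (1.24), Snai1 (0.88) and Zic2 (0.32) were higher, and Cdh19 was under the floor in all pools.

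Both of the genes that rose are also expressed in mesoderm, and some mesenchymal markers moved with them. Of 12 markers of the mesenchyme under the epithelium, 5 rose and 0 fell (Postn 1.10, Pdgfrb 0.85, Prrx1 0.81, Tcf21 0.71 and Col3a1 0.34 on the log2 scale). Of the 6 that did not pass, Col1a1 (0.54) and Col1a2 (0.33) were higher in KO. Foxf1 (-0.77), Tagln (-0.27), Pdgfra (-0.11) and Acta2 (-0.10) were lower, and Meox2 lay under the filter. The 12 markers summed to 20568 to 21413 in KO and 14796 to 16701 in wild-type pools, with Col3a1 and Col1a2 the brightest. The part of these markers in the result was not tested. With 1 pool left out in turn, Prrx1 passed in 1 of 6 fits (0.56 to 0.97) and Col3a1 in 4 (0.32 to 0.36, lost without KO pools 1 and 2), whereas Twist1, Itga4, Postn, Pdgfrb and Tcf21 passed in all 6. As the mean of all tested probe sets of a gene, Itga4 (0.78, adjusted p = 0.126) and Tcf21 (0.51, adjusted p = 0.0603) did not pass in limma's test. The Sox10 relative Sox9 read 166 ± 28.8 in KO and 100 ± 22.9 in wild-type pools (SD, n = 3 each; limma, 0.74, adjusted p = 0.0868). The Foxd3 relative Foxd1 read 318 ± 19.7 in KO and 205 ± 68.5 in wild-type pools (SD, n = 3 each; limma, 0.69, adjusted p = 0.0967). These were the nearest to the threshold of 11 paralogs of Dct, Mitf, Pax3, Sox10 and Foxd3, of which 5 were tested, 0 passed and 2 had an unadjusted p under 0.05.

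Crest derivatives other than pigment cells were read by 16 measured genes of glia and autonomic neurons, of which 1 rose, 1 fell, 9 did not pass and 5 lay under the filter. Stmn2, a microtubule regulator of young neurons, rose to 68.5, 126 and 117 in KO pools, against 42.8, 44.9 and 48.3 in wild-type pools (limma, 1.15, SE 0.27, adjusted p = 0.0261). With 1 pool left out in turn it passed in 2 of 6 fits, the value without KO pool 2 being 0.99, and the other probe set (0.58, adjusted p = 0.479) and the mean of both (0.87, adjusted p = 0.0722) failed the threshold. Gata2, a zinc finger factor of sympathetic neurons and also of urogenital mesenchyme and blood, fell to 227, 296 and 298 in KO pools, against 696, 769 and 499 in wild-type pools (limma, -1.25, SE 0.18, adjusted p = 0.00134). Its second probe set gave -1.60 (adjusted p = 0.000806). Dbh, the noradrenaline-synthesising enzyme of sympathetic cells, read 73.8 to 130 in KO and 66.3 to 101 in wild-type pools, and Th and S100b lay under the filter.

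**Figure D3:**
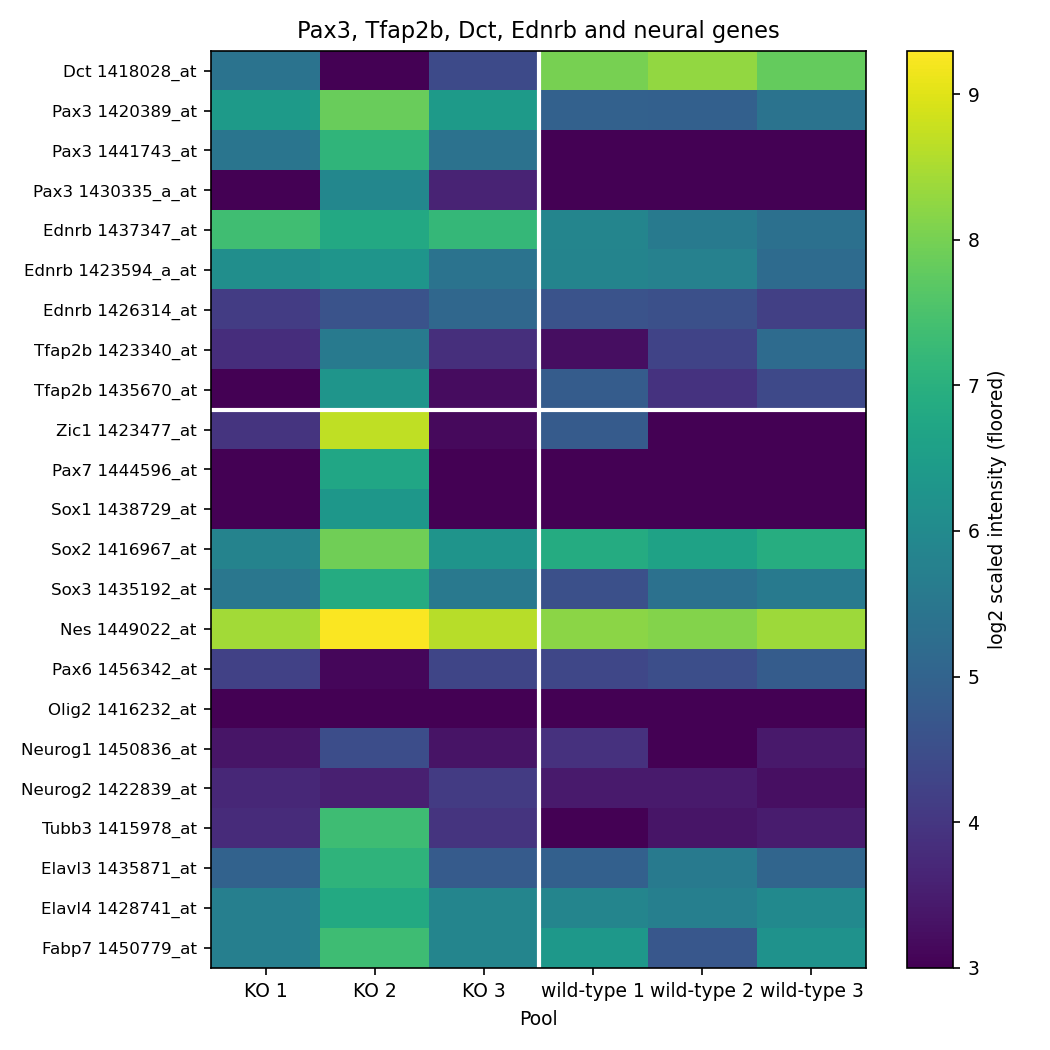
Heat map of log2 scaled intensity, floored, for the probe sets of Dct, Pax3, Ednrb and Tfap2b above the white line and of neural genes below it, with the KO pools in the left columns and the wild-type pools in the right ones. KO pool 2 is bright in Zic1, Pax7, Sox1, Tubb3 and Elavl3 as in Pax3 and Tfap2b, and dark in Dct.

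Ednrb, a G protein-coupled receptor, was higher in KO pools at 1 of its 3 probe sets. Probe set 1437347_at read 165, 111 and 147 in KO pools, against 58.2, 48.0 and 40.3 in wild-type pools. The groups were clearly apart, with the lowest KO value above the highest wild-type one, and KO pool 2 was the lowest of the KO pools. The means were 141 ± 27.0 in KO and 48.8 ± 8.96 in wild-type pools (SD, n = 3 each), a log2 difference of 1.53 (SE 0.24) that was 1.69 without KO pool 2. The other probe sets did not show it. Probe set 1423594_a_at read 69.2, 77.3 and 42.5 in KO and 57.8, 54.6 and 36.9 in wild-type pools, with overlapping groups (0.32, SE 0.30). Probe set 1426314_at, untested, read 17.3, 24.3 and 34.2 in KO and 24.5, 23.3 and 18.3 in wild-type pools (0.15, SE 0.30). Which Ednrb transcripts each probe set reads was not tested.

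Of the ligands, only Edn1 passed. Edn1, the endothelin that acts mainly on Ednra but also binds Ednrb, fell to 38.7, 39.2 and 51.4 in KO pools, against 213, 191 and 224 in wild-type pools (limma, log2 difference -2.29, SE 0.21, adjusted p = 6.07e-05). The groups lay far apart, and Edn1 passed in all 18 alternative fits in which it was tested. Edn3, the ligand of Ednrb in pigment and enteric crest, read 60.5, 76.9 and 36.2 in KO and 42.1, 58.9 and 45.8 in wild-type pools (limma, 0.19, SE 0.31, adjusted p = 0.82). Edn2 read 141 ± 24.6 in KO and 202 ± 44.5 in wild-type pools (SD, n = 3 each; limma, -0.51, SE 0.20, adjusted p = 0.212).

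Of the 16 genes of the endothelin pathway, 15 were tested, 1 rose, 1 fell and 13 did not pass. The 1 that rose was Mme, neprilysin, a surface peptidase that degrades endothelins and other peptides. It rose to 1239, 1093 and 1235 in KO pools, against 614, 612 and 845 in wild-type pools (limma, 0.80, SE 0.14, adjusted p = 0.00458). A dimmer Mme probe set did not pass (0.42, adjusted p = 0.511). The converting enzymes that cut endothelins from their precursors did not pass, Ece1 at 865 ± 214 in KO and 812 ± 282 in wild-type pools and Ece2 at 680 ± 83.0 in KO and 751 ± 100 in wild-type pools (SD, n = 3 each). The G proteins, phospholipases and Rgs proteins downstream did not pass either, with differences of -0.30 (Gna11) to 0.19 (Plcb1).

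**Figure D4:**
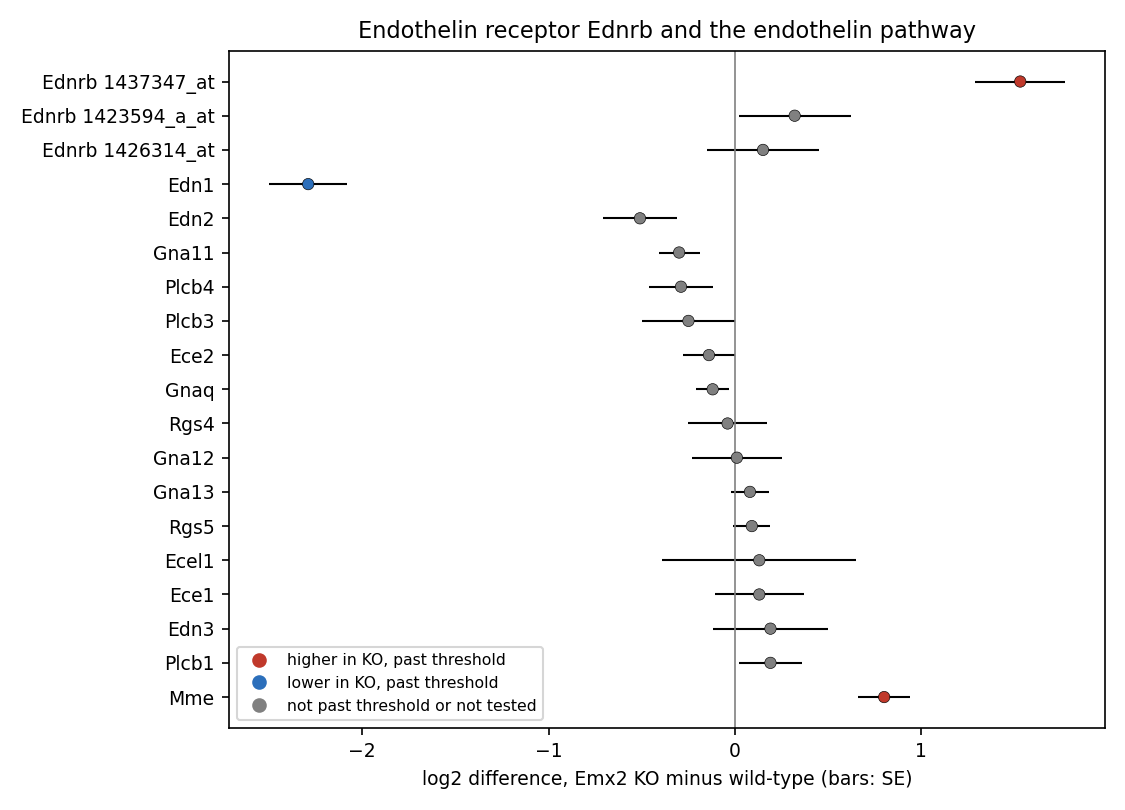
Log2 difference (KO minus wild-type, with SE bars) for the 3 Ednrb probe sets and for each endothelin pathway gene at its brightest probe set. Red points (Ednrb 1437347_at, Mme) passed higher in KO, the blue point (Edn1) passed lower, and grey points did not pass or were not tested.

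Ednrb and Edn1 are also expressed in blood vessels, and some endothelial markers were higher in KO pools, as Ednrb was. Of 8 endothelial markers, 6 were tested, 4 rose and 0 fell (limma, Emcn 1.39, Tek 1.29, Cldn5 0.85 and Egfl7 0.51). Cdh5 (0.58) and Kdr (0.51) did not pass, and Pecam1 (-0.44) and Tie1 (0.35) lay under the filter. The summed level of the 8 was 1310 to 1577 in KO and 771 to 1018 in wild-type pools. KO pool 2 had the highest sum (1577) but the lowest Ednrb 1437347_at value of the KO pools (111). The part of these markers in the Ednrb difference was not tested. With 1 pool left out in turn, Tek passed in all 6 fits, Emcn and Cldn5 in 2 and Egfl7 in 1, with values of 1.10 to 1.64 for Emcn, 0.62 to 1.04 for Cldn5 and 0.42 to 0.59 for Egfl7. The other 3 tested Egfl7 probe sets did not pass (0.02, 0.19 and 0.33), nor did the mean of all 4 (0.26, adjusted p = 0.263). Edn1 went the other way. Edn1 and Dct fell in the same pools as some markers of nephric tubules and of surface ectoderm. Of 8 nephric markers, 4 were tested. Pax8 (-1.36) and Lhx1 (-1.51) fell and 0 rose, with sums of 173 to 302 in KO and 416 to 484 in wild-type pools. Of 8 surface ectoderm markers, Grhl3 (-1.31) and Wnt6 (-1.80) fell and 0 rose, with sums of 345 to 435 in KO and 503 to 674 in wild-type pools. Grhl2 (0.01), Epcam (-0.23) and Cldn6 (-0.71) did not pass, and Krt5 (0.01), Krt14 (0.68) and Trp63 (-0.01) lay under the filter. With 1 pool left out, Pax8 (-1.61 to -1.07) and Wnt6 (-2.26 to -1.36) passed in 3 of 6 fits, Grhl3 (-1.47 to -1.17) in 4 and Lhx1 in all but that without wild-type pool 1 (-1.33). Their part in the Dct and Edn1 differences was not tested.

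The AP-2 factors Tfap2a and Tfap2b act at the neural plate border, in crest and in surface ectoderm. Tfap2a at 1421996_at read 64.5, 90.8 and 64.2 in KO pools, against 54.5, 66.3 and 78.3 in wild-type pools. The groups overlapped, and the log2 difference was 0.14 (SE 0.25), or -0.03 without KO pool 2. Its second tested probe set, 1426048_s_at, read 23.3, 46.7 and 20.9 in KO and 39.0, 26.2 and 30.7 in wild-type pools. The difference there was -0.16 (SE 0.37), or -0.52 without KO pool 2. The third, 1421995_at, reached at most 12.7 in either group. KO pool 2 was the highest of the 6 at the second probe set, followed by wild-type pool 1.

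Tfap2b was untested at both of its probe sets. Probe set 1423340_at read 14.2, 47.7 and 14.3 in KO pools, against 9.39, 19.1 and 36.7 in wild-type pools. Probe set 1435670_at read 0.869, 77.8 and 9.31 in KO pools, against 28.4, 15.2 and 21.0 in wild-type pools. KO pool 2 was the highest of the 6 at both, with wild-type pool 3 next at the first, and at the second probe set the other KO pools lay below every wild-type pool. Without KO pool 2 the differences were -0.39 and -1.28, where with all pools they were 0.19 (SE 0.74) and -0.22 (SE 1.00). Of 9 other AP-2 genes and AP-2 cofactors, 6 were tested and 0 passed, 1 of them at an unadjusted p under 0.05. The nearest were Cited2, an AP-2 coactivator, at 991 ± 64.3 in KO and 781 ± 39.4 in wild-type pools (SD, n = 3 each; limma, 0.34, adjusted p = 0.112), and Tfap2c, at 186 ± 56.6 in KO and 236 ± 34.5 in wild-type pools (-0.38, adjusted p = 0.417).

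**Figure D5:**
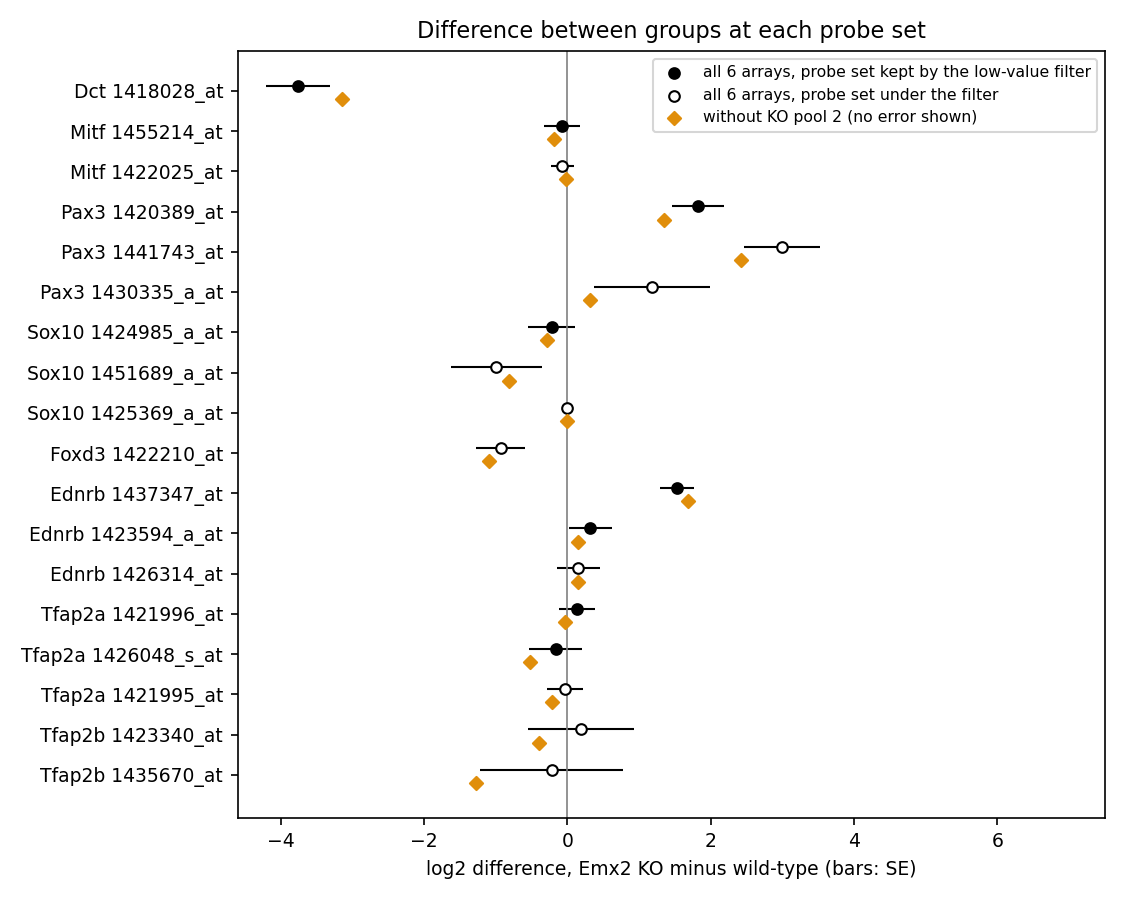
Log2 difference (KO minus wild-type) of each member probe set with all 6 arrays (circles, SE bars, open where the probe set was under the low-value filter) and without KO pool 2 (orange diamonds). Dct, Pax3 1420389_at, Pax3 1441743_at and Ednrb 1437347_at keep their side of zero by over 1 unit without that pool. So do Foxd3 1422210_at (-1.10) and Tfap2b 1435670_at (-1.28), both under the filter. Tfap2b 1423340_at is 0.19 with all arrays and -0.39 without KO pool 2.

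Over all 7 lists of crest, pigment, endothelin and AP-2 genes, 82 of 87 genes were measured, 52 were tested, 4 rose, 2 fell and 46 did not pass, with a median difference of 0.15 where that of all probe sets tested was 0.01. Over the 7 lists of other cell types, 61 of 64 genes were measured, 41 were tested, and 11 rose and 6 fell. Of all tested probe sets, 4.68% passed. The lists were chosen with earlier results of these data known, so nothing is read from these counts. The genes whose log2 values ran most like those of Dct over the 6 arrays were Tuft1 (Pearson r = 0.9992), Slc25a36 (0.9965), Nipsnap1 (0.9921), Ccdc91 (0.9918) and Spice1 (0.9916). Their differences were small, between -0.24 and -0.34, and 0 of these 5 passed in limma's test, where 3 of them had an unadjusted p under 0.05. Tuft1, for example, read 238, 212 and 225 in KO and 264, 268 and 263 in wild-type pools. These correlations share the same 6 arrays and the split between the groups, and were the highest among all genes tested.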

How the data were processed

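Gene expression was measured on 6 one-channel oligonucleotide arrays, 3 of Emx2 KO and 3 of wild-type pools. The authors deposited a linear intensity per probe set, made with GCOS 1.2 per the submitters' processing notes. The summary algorithm and scaling are not given in the sources used here, and trimmed means of the arrays differed by up to 1.47-fold. Each array was rescaled to a common 2% trimmed mean (309.2), floored at the 20th percentile of all values (7.99) and put on a log2 scale. Control probe sets (64) and the dimmest 40% were left out. The remaining 27022 of 45101 probe sets were tested with limma 3.58.1 in R 4.3.3 (lmFit, eBayes with intensity trend, two-sided, Benjamini-Hochberg adjustment). The median SE was 0.188; the number of arrays limits the precision.

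Symbols came from the platform annotation, where 34958 probe sets had 1 symbol, 932 several and 9211 none. Untested members were read from the same fit without the filter. A listed gene was read by its brightest probe set. Every member probe set was named, and of each list up to 4 called genes by size, filled to 2 by p. Named too were the 5 genes most correlated with Dct, the sex markers and Emx2; other names were chosen after their values were seen. The members and lists were chosen with earlier results of these data known. The numbers of the pools did not pair them, the same-number correlations of deviations being -0.065, 0.04 and -0.051. The procedure was tested on simulated data. Alternatives covered scaling, floor, filter, trend, threshold, array weights, a replicate block, the mean of all tested probe sets of a gene and each pool left out.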

Additional observations from a re-analysis of the deposited data

How the results depend on the processing

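Dct 1418028_at, Pax3 1420389_at and Ednrb 1437347_at kept their direction in all 17 settings, some of which change no difference by construction, with log2 differences of -4.32 to -2.90, 1.35 to 2.06 and 1.27 to 1.69. Ednrb 1426314_at was -0.09 without KO pool 3. Untested Pax3 1441743_at was 4.01 with no floor, a greater size than that of Dct (-3.76). The Dct value of -2.90 came with a pseudocount of 16, which shrinks differences of dim signals by construction. With no filter, 151 probe sets, 0 members, 2 pathway genes and 2 genes of other cell types passed. With the dimmest 60% left out, 0 members passed, since the Dct, Pax3 and Ednrb probe sets were themselves among those left out. Without an intensity trend, 541 probe sets and 8 genes of other cell types passed, with 2 members (Dct, Ednrb); the cause was not tested. At an adjusted p threshold of 0.1, 1939 probe sets and 11 pathway genes passed. With a single pool left out, 721 to 1687 probe sets passed, with 3 to 4 members, always of these 3 genes, 5 to 9 pathway genes and 10 to 15 genes of other cell types. The lowest probe set count came without wild-type pool 1, and it was 815, 834 and 790 without KO pools 1, 2 and 3. With the replicate block, 1160 probe sets and 3 members passed, and the block changed no member's call; the pools share only a number. Of called probe sets, 58.7% were higher in KO, against 68.4% with values as deposited (median difference 0.098) and 70.9% with no filter. With the mean of all tested probe sets of a gene, Itga4, Stmn2, Tcf21 and Egfl7 did not pass. Twist1 and Edn1 passed in every alternative in which they were tested. Signals near the dim limit of 26.4 limit Foxd3, Tfap2b, the second Sox10 probe set and the KO level of Dct.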
